A study of Homo sapiens with 3 samples.

Results

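The genes described here are 6 ribosomal protein paralogs, genes that resemble a canonical ribosomal protein gene and lie elsewhere in the genome: RPS27L, RPL22L1, RPL7L1, RPL39L, RPL26L1 and RPL3L. They were taken by symbol from a footprint count table that lists 63241 genes, and each symbol was found once. Of the 6, 5 passed the filter on low counts and were tested. Ribosome profiling (Ribo-seq), which sequences the mRNA fragments that ribosomes shield from nuclease, was performed in HEK293T cells. This line derives from human embryonic kidney and expresses large T antigen of SV40, which binds p53. The question behind the libraries was whether mutant p53 alters the translation of the mRNAs it binds. The 3 groups carried a construct for WT p53, for G245S or for R273H, both mutants being hotspot changes in the DNA-binding domain, and each group was given by 3 culture dishes. All groups shared the host cell with its own p53 gene, the large T antigen, cycloheximide for 2 min before harvest and at 100 µg/mL in the wash, micrococcal nuclease at 3 U per µg RNA for 30 min, and footprints from the monosome fraction. According to the methods the lines were made with lentivirus and puromycin. Some labels call the expression transient, and the treatment label of both mutants names the wild-type construct, so groups follow the sample titles. The 3 dishes of a group were pooled at reverse transcription, so a difference between groups and a difference between pools cannot be told apart. No group without a construct was analysed here, and whether WT p53 lost an effect or a mutant gained one cannot be told apart.

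Ribosomes are built from ribosomal RNA and a fixed set of proteins, most of them encoded by a single active gene and by many silent processed copies. A few of these proteins have an expressed second gene. Such paralogs can replace the canonical protein in some ribosomes, are often restricted to a tissue, and in some cases act outside the ribosome. Ribosomal proteins are also tied to p53 itself: several bind MDM2, the ubiquitin ligase that marks p53 for degradation, and RPS27L, the paralog of the small-subunit protein RPS27, is known both as a transcriptional target of p53 and as an MDM2 partner.

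How far a footprint can be assigned to a paralog depends on how its coding sequence differs from its canonical gene. RPS27L and RPS27 each have a coding sequence of 255 nt including the stop codon. The sequences are shown whole because the largest difference between groups lies in this pair. Capitals mark the 56 bases that differ, and both are printed from the start codon as spliced in the GENCODE canonical transcripts (RPS27L, GRCh38 chr15:63125872-63158021, minus strand; RPS27, chr1:153990762-153992155, plus strand).
RPS27L: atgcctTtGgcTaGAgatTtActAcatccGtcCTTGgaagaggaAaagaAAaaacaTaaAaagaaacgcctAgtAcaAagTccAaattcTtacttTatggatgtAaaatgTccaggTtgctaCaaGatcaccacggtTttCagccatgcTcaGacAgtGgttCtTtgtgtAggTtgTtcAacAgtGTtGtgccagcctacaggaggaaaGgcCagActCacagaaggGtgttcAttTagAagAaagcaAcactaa
RPS27: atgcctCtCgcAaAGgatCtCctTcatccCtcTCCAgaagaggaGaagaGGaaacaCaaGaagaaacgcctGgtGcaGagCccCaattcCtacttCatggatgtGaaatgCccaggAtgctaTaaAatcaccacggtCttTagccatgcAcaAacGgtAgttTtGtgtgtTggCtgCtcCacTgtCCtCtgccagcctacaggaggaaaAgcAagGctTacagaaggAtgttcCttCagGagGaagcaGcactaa
The differences touch 48 codons, of which 45 keep the amino acid and 3 do not, and the identity was 78.0%. The longest identical stretch was 20 nt, so no window of 30 nt, about the length of a footprint, was common to both genes.

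RPL39L and RPL39 were the closest pair and are shown because footprints of one could match the other. Their coding sequences of 156 nt were 94.9% identical (RPL39L, chr3:187120948-187180908, minus strand; RPL39, chrX:119786504-119791630, minus strand), and capitals again mark the bases that differ.
RPL39L: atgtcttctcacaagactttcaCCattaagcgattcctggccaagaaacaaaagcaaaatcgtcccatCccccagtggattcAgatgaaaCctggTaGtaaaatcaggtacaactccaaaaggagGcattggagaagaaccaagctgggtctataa
RPL39: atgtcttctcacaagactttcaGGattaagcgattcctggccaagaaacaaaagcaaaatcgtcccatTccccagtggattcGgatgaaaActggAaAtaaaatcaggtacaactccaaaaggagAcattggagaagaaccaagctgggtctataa
The 8 differing bases fall in 7 codons, 4 of which change the amino acid. The longest identical run was 44 nt, and 16 of 127 windows (12.6%) were the same in both genes. The identity of the other pairs was 84.2% for RPL26L1 and RPL26, 75.2% for RPL3L and RPL3, 65.4% for RPL22L1 and RPL22, and 54.0% for RPL7L1 and RPL7. None of these 4 pairs shared a 30-nt window.

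The start of RPL26L1 (chr5:172958729-172969771, plus strand) beside that of RPL26 (chr17:8377516-8383213, minus strand) shows a different spacing of changes. Capitals mark the bases that differ in the first 150 nt from the start codon.
RPL26L1: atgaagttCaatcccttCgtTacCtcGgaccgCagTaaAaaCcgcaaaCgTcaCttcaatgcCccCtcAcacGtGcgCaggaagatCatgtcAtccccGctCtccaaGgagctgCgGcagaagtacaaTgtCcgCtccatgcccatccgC
RPL26: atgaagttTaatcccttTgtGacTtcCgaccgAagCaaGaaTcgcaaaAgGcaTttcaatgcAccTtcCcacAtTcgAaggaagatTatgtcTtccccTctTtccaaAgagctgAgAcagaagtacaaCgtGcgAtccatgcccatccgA
Over the 438 nt of each gene 69 bases differed. These lie in 64 codons, of which 62 keep the amino acid and 2 do not.

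Copies elsewhere in the genome were the larger limit on assignment. RPL3L matched no other gene in any of its 1195 windows of 30 nt, RPS27L was unique in 200 of 226 windows (88.5%), RPL22L1 in 281 of 340 (82.6%) and RPL39L in 99 of 127 (78.0%). RPL26L1 was unique in 99 of 409 windows (24.2%), with 289 windows also found in the pseudogene RPL26P30, and RPL7L1 in 135 of 739 (18.3%), with windows shared by 26 pseudogenes. The canonical genes were less distinct, from 0% of windows in RPS27, RPL7 and RPL39 to 34.7% in RPL3. Of a library's values above 0, 61.5% to 63.7% were not whole. How reads with several matches were counted is not given in the sources used here, so the counts of genes with near copies are uncertain. The pseudogenes that share windows held few counts beside RPS27L (mean 13.4 against 1709) and RPL22L1 (12.0 against 2688), more beside RPL26L1 (343 against 4736) and RPL7L1 (1591 against 7957), and outweighed RPL39L (3885 against 1214).

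**Figure D1:**
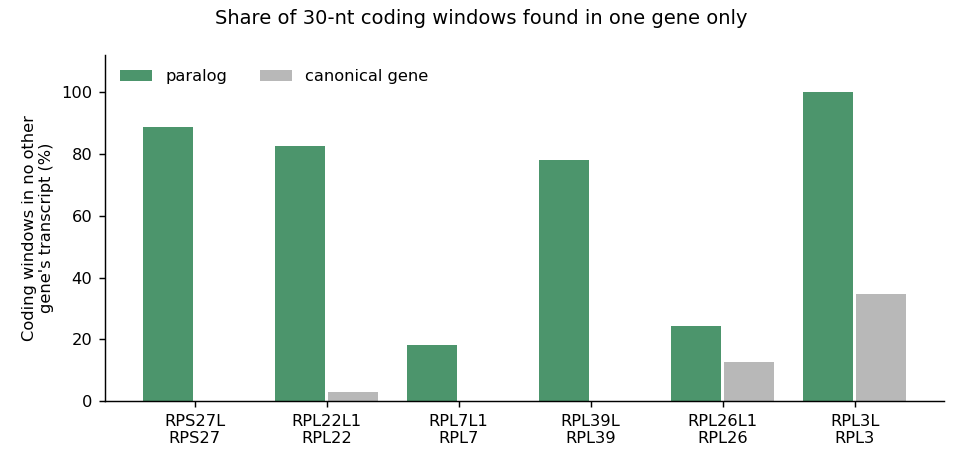
Bars give, for each paralog (green) and its canonical gene (grey), the percentage of 30-nt windows of the coding sequence found in no other gene's annotated transcript, on an axis from 0. RPS27L, RPL22L1, RPL39L and RPL3L stand at 78.0% or above, RPL7L1 and RPL26L1 at 18.3% and 24.2%, and RPS27, RPL7 and RPL39 have no unique window.

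The 9 libraries held 18.7 to 24.6 M expected counts, and levels are given as CPM, counts scaled to a common library total with TMM factors. Dishes of one group differed by more than counting noise, with a chi-square per degree of freedom of 1.48 to 2.62 over 12653 genes, so each dish was kept as a replicate. MDM2 and CDKN1A, which WT p53 is known to induce, served as a check of the labels. From WT to G245S to R273H, MDM2 stood at 860 ± 49.3, 76.8 ± 4.21 and 76.7 ± 2.94 CPM (SD, n = 3 dishes), and CDKN1A, a cell cycle inhibitor, at 61.1 ± 2.27, 16.1 ± 0.345 and 13.9 ± 0.515 CPM. The cells are labelled epithelial. The epithelial keratins KRT8 and KRT18 had at least 32.4 and 108 CPM in every dish, EPCAM and CDH1 had 3.28 to 5.35 and 5.24 to 8.58 CPM, KRT19 had at most 1 count, and the mesenchymal gene VIM had at least 875 CPM. The 5 epithelial markers summed to 155 to 166 CPM in WT, 154 to 156 in G245S and 167 to 172 in R273H, and the 3 mesenchymal ones to 1234 to 1263, 1328 to 1347 and 1275 to 1280. The summed neurofilament genes NEFL, NEFM and INA, known in this line, ran from 408 to 415 CPM in WT, 369 to 377 in G245S and 389 to 402 in R273H. The part of these differences in the results below was not tested. The 4 blood and endothelial markers had at most 3 counts in any dish.

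Footprint density in WT cells differed less than 2-fold among the 5 tested paralogs, and RPL3L lay far below them. Per kilobase of coding sequence the WT level was 545 ± 8.65 CPM for RPL26L1 (SD, n = 3 dishes), 528.5 ± 36.3 for RPS27L, 487 ± 4.64 for RPL7L1, 396 ± 21.1 for RPL39L, 308 ± 11.3 for RPL22L1 and 0.211 ± 0.0436 for RPL3L. RPL26L1 and RPS27L overlapped between dishes, and the other neighbours in this order did not. Every canonical gene lay above its paralog on this scale, from 836 ± 49.1 for RPL22 to 2730 ± 127 for RPL39. In both mutants RPS27L, next below RPL26L1 in WT, was the lowest of the 5 tested paralogs, at 230 ± 10.6 in G245S and 221 ± 6.49 in R273H. RPL26L1 and RPL7L1 overlapped between dishes in each mutant, and so did RPL22L1 and RPL39L. Whether the deposited counts cover untranslated regions is not given in the sources used here, which would matter most for RPS27L, whose canonical transcript of 6110 nt holds 255 coding nt.

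RPS27L fell by 56.4% in G245S and fell by 58.25% in R273H. Its footprint level was 126, 133.8 and 144.5 CPM in the 3 WT dishes, 60.7, 55.6 and 59.8 CPM in G245S and 54.6, 56.2 and 57.9 CPM in R273H. Every mutant dish was below every WT dish, and the mutants overlapped each other. The log2 fold change was -1.20 ± 0.05 (SE) in G245S against WT (edgeR quasi-likelihood test, adjusted p = 1.3e-16) and -1.26 ± 0.04 in R273H against WT (adjusted p = 2.5e-17). By p-value the gene stood at place 28 and 27 of 19820 genes tested, and its change was larger than that of 95.9% and 96.6% of the genes called. The mutants differed from each other by 0.06 on the log2 scale (95% interval -0.04 to 0.16, adjusted p = 0.585). No RNA-seq was matched to these libraries here, so fewer footprints per mRNA and less mRNA cannot be told apart, and in a bulk sample neither can fewer cells with the mRNA and less of it per cell.

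RPS27 did not fall with it. The canonical gene had 359, 360 and 394 CPM in WT, 387, 401 and 391 in G245S and 378, 400 and 409 in R273H, and its groups overlapped. Against WT it had a log2 fold change of 0.084 ± 0.034 in G245S, which did not pass the test (adjusted p = 0.0814). In R273H it had 0.094 ± 0.034 and passed (adjusted p = 0.0425), but leaving out any of 7 of the 9 dishes ended that call, with log2 fold changes of 0.070 to 0.095 in those fits. Of the counts of the pair, RPS27L made up 26.6 ± 0.585% in WT, 13.0 ± 0.730% in G245S and 12.4 ± 0.147% in R273H (SD over 3 dishes). The log2 ratio of the pair was lower by -1.28 in G245S and by -1.35 in R273H, with an exact two-sided permutation p = 0.1 each, the smallest that 3 dishes against 3 allow.

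LACTB, a mitochondrial serine protease gene, overlaps RPS27L on the opposite strand. Because the handling of strand is not stated, reads of overlapping sequence cannot be assigned with certainty. LACTB had 19.02 ± 0.351 CPM in WT, 18.9 ± 0.330 in G245S and 18.8 ± 1.30 in R273H, and it was not called in any contrast.

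The window from 1000 nt before to 2000 nt after each annotated start site was searched for the p53 response element, 2 adjoining decamers with both 4-letter cores intact. The element reads the same on both strands. With at most 2 mismatches no paralog had a match, beside 223 of 20027 protein-coding genes (1.11%). With at most 3, a limit added after that outcome was seen, 1 of the 6 paralogs had matches, RPS27L, beside 1162 of all genes (5.80%), none of the 6 canonical genes and 14 of 42 listed p53 targets (33.3%). They are shown because RPS27L is a known p53 target, as read on the gene's minus strand, with the cores in capitals: 
RPS27L, intron 1, 233 nt downstream of the start, GRCh38 chr15:63157235-63157254: gggCATGtagtgaCTTGccc
RPS27L, 59 nt upstream of the start, GRCh38 chr15:63157527-63157546: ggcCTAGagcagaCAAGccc
Each has 3 mismatches of 20. RPL10L, a paralog outside the 6, also had a match with 3 mismatches, 448 nt upstream of its start. A match in letters does not show binding, and MDM2 and CDKN1A had no match in this window.

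Footprints of p53 targets as a group moved in the same direction as RPS27L. Of 40 tested genes of a target list without RPS27L, each mutant had 36 called lower and none called higher. Among all genes tested, 12.1% were called lower in G245S and 14.6% in R273H. The list's median log2 fold change was -1.14 against WT for either mutant, beside medians over all genes of -0.00069 (G245S) and -0.0024 (R273H). In G245S 19 of the 40 targets had a more negative change than RPS27L, and in R273H 17 did. MDM2 changed by -3.48 ± 0.05 and -3.49 ± 0.05, and CDKN1A by -1.92 ± 0.06 and -2.14 ± 0.05, on the log2 scale. RPS27L therefore lay near the middle of the target list. The genes whose profile over the 9 dishes was nearest to RPS27L, among 12653 with a mean count of at least 100, were POLH, the translesion DNA polymerase eta (root mean square difference 0.0476 on the log2 scale), DSC3, a desmosomal cadherin (0.0698), and SESN1, a stress-induced regulator of mTORC1 (0.0971). Their log2 fold changes were -1.17, -1.29 and -0.9997 in G245S and -1.21, -1.31 and -1.09 in R273H, and the median difference from RPS27L over all genes compared was 0.584. POLH and SESN1 belong to the target list above, and DSC3 does not.

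**Figure D2:**
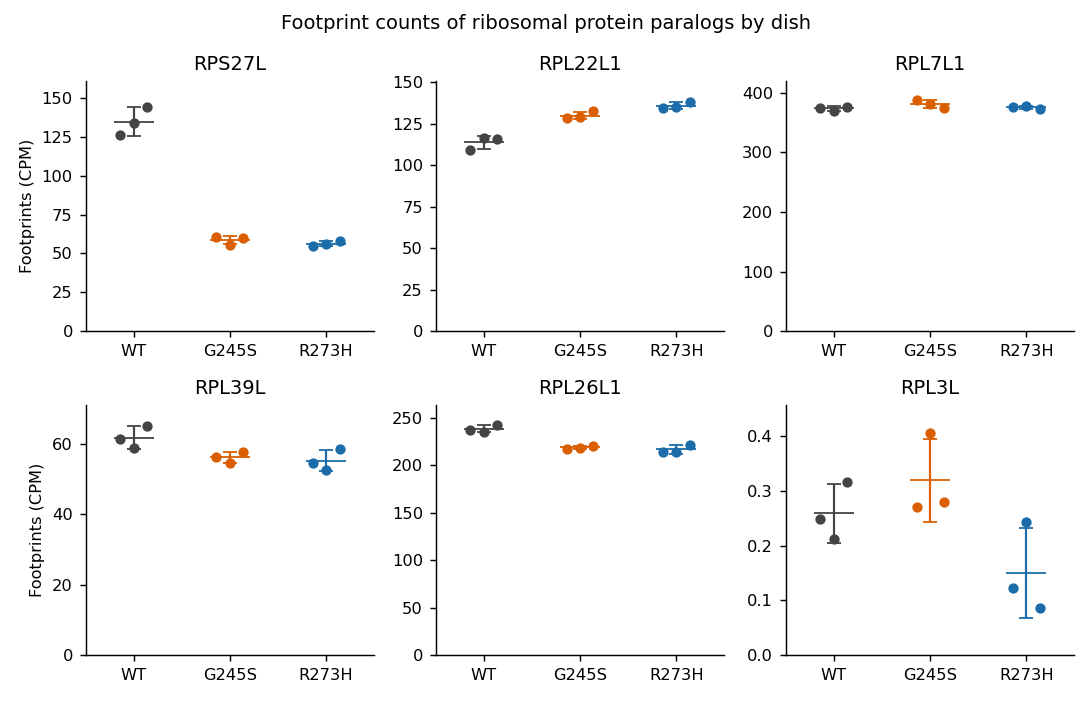
Points are the 3 dishes of each group, with the group mean and SD, and the vertical axes give footprints in CPM from 0, on a separate scale for each gene. RPS27L drops from 135 to 58.7 and 56.2 CPM, RPL22L1 rises from 114 to 130 and 136 CPM, and RPL3L lies under 0.5 CPM in every dish.

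Among all 19820 genes tested, G245S against WT gave 4900 calls (24.7%), of which higher ones made up 12.6% of the genes and lower ones 12.1%. R273H against WT gave 5707 calls (28.8%), split into 14.2% and 14.6%. Of the 5 tested paralogs, 4 were called in each mutant, 1 higher (RPL22L1) and 3 lower (RPS27L, RPL39L and RPL26L1). The same 4 paralogs had non-overlapping dishes in each mutant against WT, beside 37.4% of all genes in G245S and 41.2% in R273H. The median log2 fold change of the 5 was -0.12 and -0.14. Between the mutants none of the 5 was called, beside 2.59% of all genes, and RPL22L1 alone had non-overlapping dishes, beside 21.5%. Before adjustment edgeR's p of RPL22L1 alone was under 0.05, and DESeq2 and limma-voom likewise called none of the 5. Both mutant contrasts share the WT dishes, so the match in direction between them is not independent.

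RPL22L1 was the only tested paralog called higher in the reported fit. It is the paralog of RPL22, a large-subunit protein that also binds RNA outside the ribosome and is known to restrain RPL22L1 expression. RPL22L1 had 109, 117 and 116 CPM in the WT dishes, 128, 129 and 132.5 CPM in G245S and 134.5, 135 and 138 CPM in R273H. The groups did not overlap, with WT lowest and R273H highest. In G245S the increase was 14.2%, or 0.19 ± 0.03 on the log2 scale (SE; adjusted p = 6.1e-05), and in R273H it was 19.5%, or 0.26 ± 0.03 (adjusted p = 4.7e-07). G245S against R273H gave -0.06 ± 0.03 (95% interval -0.13 to -0.000093, adjusted p = 0.317), which did not pass the test.

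RPL22 itself had 309, 316 and 345 CPM in WT, 322, 312 and 332 in G245S and 329, 318 and 344.5 in R273H. Its groups overlapped, and its log2 fold changes of -0.0051 ± 0.0394 and 0.032 ± 0.0389 did not pass the test (adjusted p = 0.948 and 0.594). RPL22L1 made up 26.1 ± 0.906% of the counts of the pair in WT, 28.7 ± 0.427% in G245S and 29.1 ± 0.601% in R273H, and the dishes of WT lay below those of both mutants. The difference in log2 ratio was 0.20 in G245S and 0.22 in R273H (exact permutation p = 0.1 each). The genes nearest to RPL22L1 in profile were RLIG1, an RNA ligase, HSPH1, a chaperone of the heat shock protein family, and AQR, a spliceosomal helicase, with root mean square differences of 0.0202, 0.0202 and 0.0208.

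The RPL22L1 start site differs from that of RPS27L in a feature of ribosomal protein genes. Most of these begin transcription at a C followed by a run of pyrimidines, the sequence through which their translation responds to mTOR. A run of at least 5 nt that starts with C within 5 nt of the start was found at 58 of 78 RefSeq start sites of canonical ribosomal protein genes (74.4%), against 7408 of 35114 over all genes (21.1%). The start sites below (RefSeq, GRCh38.p14) are shown to compare both paralogs with their canonical genes, with 10 nt before the start in lower case and 15 nt from the start in capitals.
RPS27L, chr15:63157463-63157487, minus strand: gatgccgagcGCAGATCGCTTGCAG
RPS27, chr1:153990752-153990776, plus strand: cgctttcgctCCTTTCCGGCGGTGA
RPL22L1, chr3:170870181-170870205, minus strand: ccgtagcttcCTCTCTGCTCTCGCG
RPL22, chr1:6199581-6199605, minus strand: cgctcacctcCCTTTCTAACTCCGC
The longest run was 10 nt in RPL22L1, near the 11 nt of RPL22, while RPS27L had 1 nt beside 9 nt in RPS27. RPL7L1 (2 nt) and both start sites of RPL26L1 (1 and 3 nt) also lacked a run of 5 nt, whereas RPL39 (22 nt), RPL26 (12 nt) and RPL3 (5 nt) had one. RPL36AL, a paralog outside the 6 that was called lower in both mutants, had a run of 8 nt, and RPL10L had 1 nt. A link between such runs and the fold changes was not tested. No start site of RPL39L, RPL3L or RPL7 was scanned.

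RPL26L1 fell and RPL26 rose. RPL26L1 is a near copy of RPL26, a large-subunit protein that is itself known to bind MDM2. RPL26L1 had 238, 236 and 243 CPM in WT, 217, 219 and 221 CPM in G245S and 214, 215 and 222 CPM in R273H. All mutant dishes lay below all WT dishes. Against WT the log2 fold change of G245S was -0.12 ± 0.03 (adjusted p = 0.000906), and that of R273H was -0.14 ± 0.03 (adjusted p = 0.000193).

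RPL26 had 780, 745 and 831.5 CPM in WT, 876, 875 and 881 in G245S and 863, 845 and 875 in R273H. Here the WT dishes were the lowest, without overlap, and RPL26 was the only canonical gene of the 6 called in both mutants, by 0.16 ± 0.03 on the log2 scale in G245S (adjusted p = 0.000186) and by 0.13 ± 0.03 for R273H (adjusted p = 0.00103). The share of RPL26L1 in the pair went from 23.3 ± 0.706% in WT to 20.0 ± 0.0940% in G245S and 20.1 ± 0.210% in R273H. Its log2 ratio was lower by -0.29 and -0.27 (exact permutation p = 0.1 each). RPL26L1 and RPL26 shared no 30-nt window. RPL26 was itself unique in 52 of 409 windows (12.7%), and 282 were shared with an overlapping protein-coding gene on the same strand.

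Once the trend of fold change with coding length and GC content was removed, RPL26L1 changed by -0.046 ± 0.023 in G245S, which was no longer called (adjusted p = 0.125), and by -0.059 ± 0.023 in R273H, which was (adjusted p = 0.037). The antisense gene RPL26L1-AS1, which overlaps RPL26L1, had 5 to 14 counts per dish. The genes nearest to RPL26L1 in profile were NDUFB4, a subunit of respiratory complex I, SCP2, a sterol carrier protein, and HSPA8, a constitutive chaperone, with root mean square differences of 0.00852, 0.0105 and 0.0115.

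RPL39L showed a small decrease that depended on the processing. RPL39L is the paralog of RPL39, a protein at the exit tunnel of the ribosome, and is known for its role in male germ cells. RPL39L had 61.3, 58.7 and 65.2 CPM in WT, 56.1, 54.7 and 57.7 CPM in G245S and 54.7, 52.5 and 58.5 CPM in R273H. The mutant dishes lay below the WT dishes, although the lowest WT and the highest R273H dish nearly touched. G245S differed from WT by a log2 fold change of -0.14 ± 0.05 (adjusted p = 0.0352), and R273H differed by -0.16 ± 0.05 (adjusted p = 0.00884).

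Neither call held once the length and GC trend was removed, with log2 fold changes of -0.0046 for G245S (adjusted p = 0.947) and -0.060 for R273H (adjusted p = 0.230). Neither held once the 19 pseudogenes that share its windows were counted with RPL39L, with -0.0093 (adjusted p = 0.885) and 0.0050 (adjusted p = 0.934). In that sum the pseudogenes outweighed RPL39L (mean count 3885 against 1214), so it cannot show the change of RPL39L alone. In G245S the call was also lost with upper-quartile scaling, DESeq2 and limma-voom, and over its alternatives the adjusted p ran from 0.00523 to 0.947 there and from 0.000712 to 0.934 in R273H. Without WT dish 3 the values were -0.090 (adjusted p = 0.208) and -0.12 (adjusted p = 0.0738), and G245S was not called without WT dish 1, G245S dish 1 or G245S dish 2, nor R273H without R273H dish 2, at values of -0.14 to -0.11. RPL39 did not pass the test, at 426 ± 19.9 CPM in WT, 430 ± 10.2 in G245S and 417 ± 10.99 in R273H. RPL39L made up 12.7 ± 0.271% of the counts of the pair in WT, 11.6 ± 0.350% in G245S and 11.7 ± 0.321% in R273H. The log2 ratio of the pair differed from WT by -0.15 in G245S and -0.13 in R273H (exact permutation p = 0.1 each). Of 5 germ cell markers, DDX4, DAZL, SYCP3, SYCP1 and TNP1, none had more than 1 count in a dish. The genes nearest to RPL39L in profile were ATP5IF1, the inhibitor of the mitochondrial ATP synthase, HMGB1, a chromatin protein, and ATP6V1E1, a subunit of the vacuolar proton pump, with root mean square differences of 0.0241, 0.0272 and 0.0281.

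RPL7L1 was not called in either mutant. It is a relative of RPL7 and, per coding length, had the narrowest range of the 5 over the 9 dishes. RPL7L1 had 375, 370 and 376.5 CPM in WT, 387.5, 382 and 374 CPM in G245S and 376, 378.5 and 373 CPM in R273H. All groups overlapped. Its log2 fold change of 0.0275 ± 0.0241 in G245S had a 95% interval of -0.022 to 0.077 (adjusted p = 0.448), and that of 0.0070 ± 0.0239 in R273H one of -0.042 to 0.056 (adjusted p = 0.863). With the length and GC trend removed it was called in G245S (0.068, adjusted p = 0.0132). Most of its windows are shared with pseudogenes, so this level may depend on how such reads were counted. Without that adjustment RPL7 did not pass the test either, at 680 ± 27.8, 711 ± 0.666 and 694.5 ± 18.5 CPM, and the share of RPL7L1 in the pair was 35.5 ± 0.847%, 34.9 ± 0.416% and 35.1 ± 0.736%.

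RPL3L, a paralog of RPL3 that is known from heart and skeletal muscle, was barely detected. It had 5.001, 4.002 and 6.34 expected counts in WT, 4.96, 8.02 and 6.002 in G245S and 3, 5.54 and 2.05 in R273H. In counts all groups overlapped. In CPM each mutant overlapped WT, while every G245S dish (0.271 to 0.407) lay above every R273H dish (0.086 to 0.243). The gene did not pass the filter, so the reported fit held no test of it. RPL3, the canonical gene, had 1141 ± 9.94, 1187 ± 27.4 and 1141 ± 13.3 CPM and was not called in the reported fit. Of 5 striated muscle markers, MYH7, TNNT2 and MYL2 had at most 2 counts in a dish, while CKM had 7.00 to 26.0 counts and ACTN2 had 49.1 to 104 counts.

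**Figure D3:**
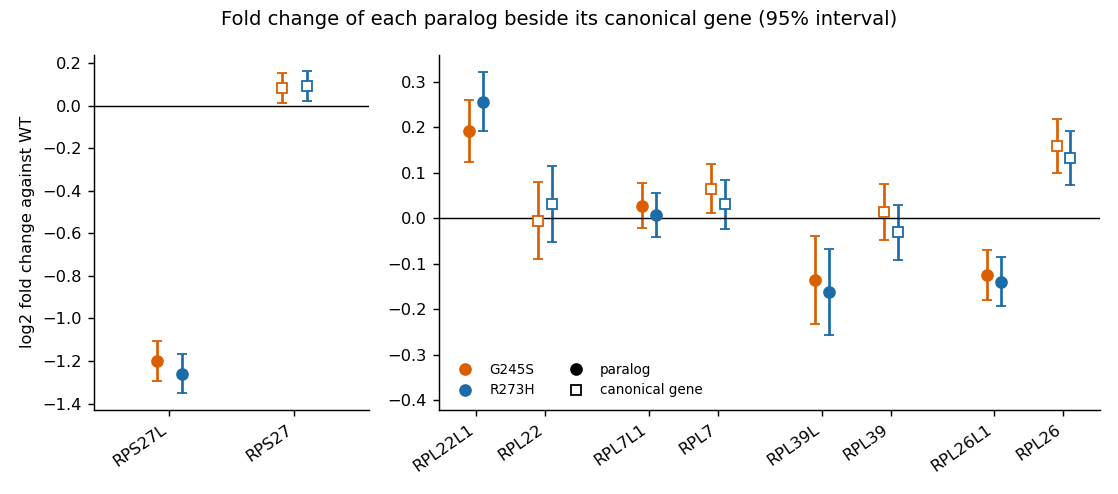
The vertical axes give log2 fold change against WT with its 95% interval, on a wider scale for RPS27L and RPS27 at the left; filled circles are paralogs, open squares canonical genes, orange G245S and blue R273H. RPS27L lies at -1.20 and -1.26, RPL26L1 and RPL26 lie on opposite sides of 0, and both genes of the RPL7L1 pair lie between 0 and 0.07.

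The canonical genes were taken as a set beside the paralogs. Of the 6, 1 was called in G245S (RPL26) and 2 in R273H (RPL26 and RPS27), all higher, with a median log2 fold change of 0.061 and 0.031. Of 79 cytosolic ribosomal proteins, G245S had 40 called higher against 5 called lower (median 0.067), and R273H had 31 against 7 (median 0.034). Calls among the canonical proteins were thus mostly higher in both mutants. Over all genes tested the shares were nearer to even, at 12.6% higher beside 12.1% lower for G245S. For R273H they were 14.2% beside 14.6%. Of the 4 paralogs called in each mutant, RPS27L, RPL39L and RPL26L1 were lower, while RPL22L1 was higher like most canonical calls. With the length and GC trend removed, all 6 canonical genes were called higher in G245S (0.070 to 0.23, median 0.13) and 4 of them in R273H (RPS27, RPL22, RPL39 and RPL26, median over the 6 0.077). That setting tested 13619 genes, of which 2907 were called higher in G245S and 2908 in R273H. RPL7 (0.11, adjusted p = 0.000107) and RPL3 (0.070, adjusted p = 0.00796) were among those that gained a call in G245S. The median of the 5 tested paralogs was then -0.0046 in G245S and -0.059 in R273H. The difference between the sets was not tested. The direction of RPL22 in G245S and that of RPL39 in R273H turned under this setting.

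Of 16 canonical ribosomal proteins known to bind MDM2, G245S had 10 called higher and 1 called lower (median 0.078), where 12.6% and 12.1% of all genes were so called. In R273H these were 8 and 1 (median 0.067), beside 14.2% and 14.6%. These 16 belong to the 79 cytosolic ribosomal proteins, of which G245S had 40 called higher and 5 lower (median 0.067). R273H had 31 of the 79 higher and 7 lower (median 0.034). Whether the 16 differ from the other ribosomal proteins was not tested. RPS15 was called in both with opposite signs, higher by 0.060 on the log2 scale in G245S (adjusted p = 0.0491). Its log2 fold change in R273H was -0.083 (adjusted p = 0.00592). Those called higher in both mutants were RPL4, RPL5, RPL11, RPL23, RPL26, RPS3 and RPS7. RPL5 and RPL11, which bind MDM2 together with 5S rRNA, changed on the log2 scale by 0.20 and 0.17 in G245S and by 0.19 and 0.092 in R273H. RPL23 and RPS3 lost a call in each mutant when some single dishes were left out, and RPL11 lost its call in R273H without R273H dish 3 (0.071, adjusted p = 0.053). RPS27L, the MDM2 partner among the paralogs, moved the other way.

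RPL36AL and RPL10L were examined as further paralogs outside the 6. RPL36AL, the paralog of RPL36A, had 263.5, 264 and 281 CPM in WT, 258, 246 and 252 in G245S and 236, 238 and 251.5 in R273H, with no overlap between WT and either mutant. It was lower by a log2 fold change of -0.097 ± 0.030 for G245S (adjusted p = 0.0197), and by -0.15 ± 0.03 in R273H (adjusted p = 0.000269). The G245S value was -0.0035 with the length and GC trend removed (adjusted p = 0.932), and the call was also lost without WT dish 3, G245S dish 2 or G245S dish 3. RPL36AL was unique in 88 of 292 windows of 30 nt (30.1%), with windows shared by 26 pseudogenes, so its counts are uncertain. RPL10L, a germ cell paralog of RPL10, had 3.48, 5.23 and 4.43 CPM in WT, 3.31, 3.36 and 2.76 in G245S and 4.27, 3.72 and 4.27 in R273H. It was called in G245S only (log2 fold change -0.48 ± 0.16, adjusted p = 0.032), and the difference between the mutants did not pass the test (-0.38 ± 0.16, adjusted p = 0.227). DESeq2 and limma-voom did not make the G245S call (adjusted p = 0.0955 and 0.0547), and it was lost without WT dish 2 (-0.33), WT dish 3, G245S dish 1 or G245S dish 3.

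**Figure D4:**
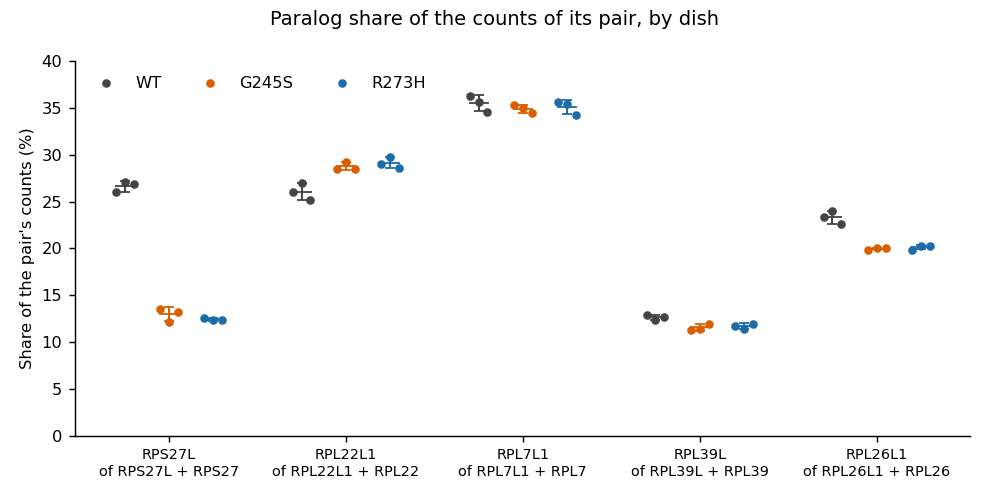
The vertical axis gives each paralog's percentage of the counts of the pair formed with its canonical gene, from 0, with 3 dishes per group as points and the mean and SD. RPS27L falls from 26.6% to 13.0% and 12.4%, RPL26L1 from 23.3% to 20.0% and 20.1%, RPL22L1 rises from 26.1% to 28.7% and 29.1%, and RPL7L1 stays within 34.3% to 36.3%.

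Summed over the 6 genes, the paralogs took 0.0927 ± 0.00127% of all counts in WT, 0.0837 ± 0.000174% in G245S and 0.0842 ± 0.000386% in R273H (SD over 3 dishes). Both mutants were below WT in every dish (exact permutation p = 0.1 each). RPS27L made up 14.6% of that sum in WT, 6.94% in G245S and 6.69% in R273H. Without RPS27L the sum was 0.0791 ± 0.000486%, 0.0779 ± 0.000077% and 0.0786 ± 0.000248%, so most of the difference in the sum was in RPS27L. Across the 15 comparisons of a paralog with its canonical gene, the ratios of RPS27L, RPL22L1, RPL39L and RPL26L1 lay apart from WT in both mutants, and none of the 15 passed after Benjamini-Hochberg adjustment (lowest adjusted p = 0.188), which this number of dishes does not allow.

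**Figure D5:**
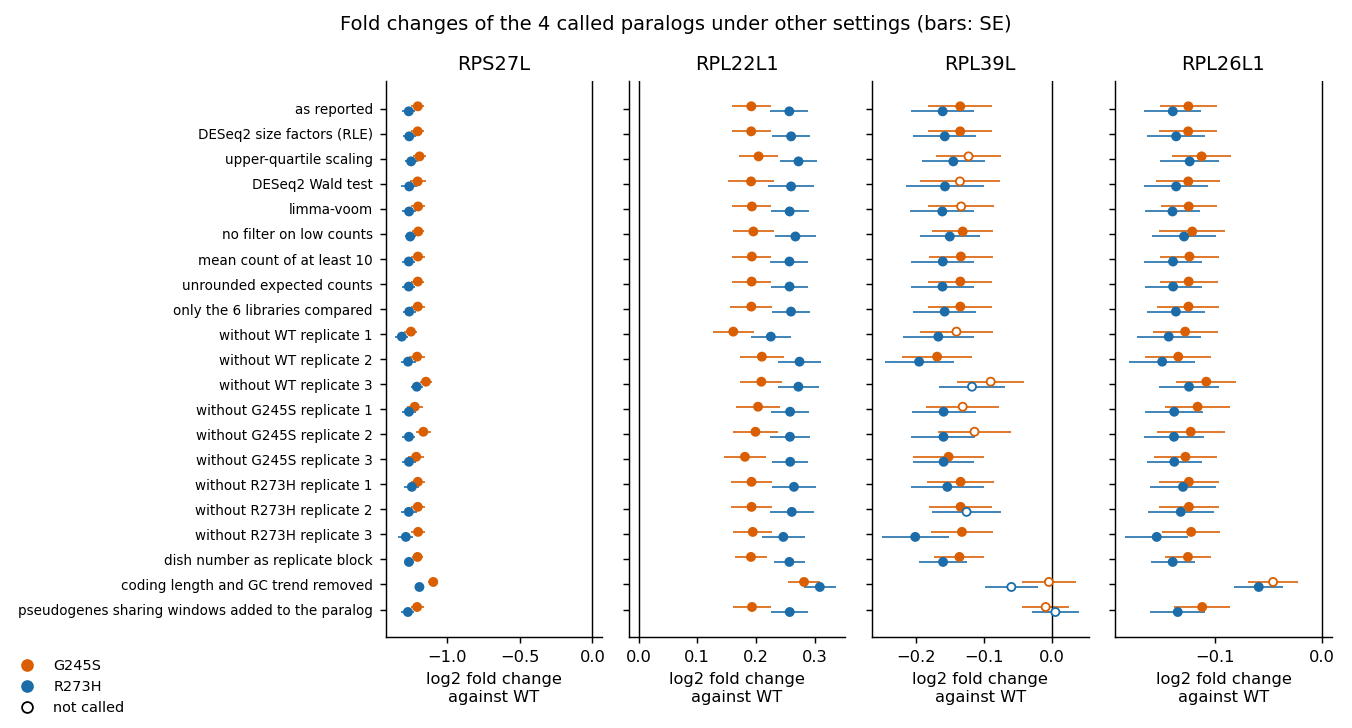
The horizontal axes give log2 fold change against WT with its SE, on a separate scale for each gene, for the reported fit and 20 other settings (vertical axis); orange is G245S, blue R273H, and open points were not called. RPS27L stays between -1.31 and -1.09 and RPL22L1 between 0.16 and 0.31, while RPL39L reaches 0.01 with its pseudogenes added.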

How the data were processed

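Ribo-seq was measured in 9 libraries, 3 dishes for each of WT, G245S and R273H. The authors trimmed adapters with Trim Galore, removed rRNA reads and aligned with STAR to GRCh38, and deposited expected counts, which are unscaled estimates of footprints assigned to each gene. The counting tool, annotation and handling of strand and multi-mapping reads are not given in the sources used here. All 9 columns were used.

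Rounded counts were analysed in R 4.3.3 with the quasi-likelihood test of edgeR 4.0.16 (TMM, filterByExpr, robust, two-sided), fitted once to the 9 libraries by group, with 6 residual degrees of freedom. Calls were made at 0.05 after Benjamini-Hochberg adjustment over 19820 genes. DESeq2 1.42.0 and limma 3.58.1 (voom) were alternatives. Ratios of pairs and summed shares were compared by exact permutation over dishes. Dishes of a group are separate cultures per the study's methods but share a pool after reverse transcription, so the spread between them lacks later variation. With no spike-in used here, changes are relative to the other genes.

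Coordinates, coding sequences and 30-nt windows come from GENCODE v44 and its GRCh38 genome, and start sites from RefSeq. Of the listed genes 62666 (99.09%) matched by identifier. The fit was tested on simulated counts. The 6 genes were fixed by symbol, and the text also names their canonical genes, MDM2, CDKN1A, RPL10L, RPL36AL, MDM2-binding proteins called alike in both mutants, overlapping genes and, for each paralog called, the 3 genes nearest in profile (log2 of CPM plus 0.5, centred). Members, lists and tests were chosen with earlier results of these data known.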

Additional observations from a re-analysis of the deposited data

How the results depend on the processing

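RPS27L and RPL22L1 kept their direction and call against WT in all 20 alternatives (other scaling, DESeq2, limma-voom, other filters, unrounded counts, 6 libraries, each dish left out, replicate block, length and GC trend removed, and pseudogenes added, the last chosen after seeing the data), at -1.31 to -1.09 and 0.16 to 0.31 on the log2 scale. In G245S the RPL39L call was lost with upper-quartile scaling (-0.123), DESeq2 (-0.136), limma-voom (-0.134), the trend removed (-0.0046) and pseudogenes added (-0.0093), with -0.169 to -0.090 when a dish was left out. In R273H it was lost with the trend removed (-0.060) and turned with pseudogenes added (0.0050), with -0.201 to -0.118 when a dish was left out. Between the mutants RPL39L turned with pseudogenes added (-0.014), with -0.0088 to 0.069 when a dish was left out. With the trend removed RPL26L1 in G245S lost its call (-0.046) and RPL7L1 in G245S gained one (0.068). RPL7L1 in R273H gave -0.0012 to 0.015 when a dish was left out. The cause was not tested. Without RPS27L, an alternative added after seeing the data, the difference in summed share went from -0.00898% to -0.00127% for G245S, and for R273H it went from -0.00844% to -0.000551%. All 105 alternative values of the pair ratios moved by less than 1 SD.

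Among the canonical and overlapping genes, signs turned for values near 0. RPL22 in G245S went to 0.0071 with upper-quartile scaling and 0.074 with the trend removed, RPL39 in R273H to 0.065 with the trend removed, and LACTB to 0.0074 and 0.0028 with upper-quartile scaling. When a dish was left out, RPL22 gave -0.037 to 0.048 in G245S and -0.00059 to 0.083 in R273H, RPL39 gave -0.0079 to 0.057 and -0.053 to 0.011, and LACTB gave -0.021 to 0.0084 and -0.048 to 0.043. In R273H RPL3 gave -0.0073 to 0.010 and RPL10L -0.243 to 0.050.

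Dishes of different groups shared only a number. Deviations from the group means correlated at 0.0437 to 0.234 for the 9 same-numbered pairs, over 0.1 in 4, and a dish correlated best with its own number in 17 of 18 comparisons, a hint from the data and not the design. With the dish number as a replicate block 5779, 6547 and 1262 genes were called in place of 4900, 5707 and 513, no call of the 6 paralogs changed, and RPS27, RPL7 and RPL3 gained one in G245S. For G245S against R273H the count was 162 to 712 when a dish was left out, and it fell most without G245S dish 1 (162), G245S dish 2 (204) and R273H dishes 1 (222), 2 (233) and 3 (295). RPL3L, limited by its depth, gave a fit only without the filter.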
